A study of Mus musculus with 12 samples.

Results

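Cytochrome P450 enzymes of families 1 to 3 are the heme proteins that carry out most oxidation of drugs and other foreign compounds in liver. The genes described here were the protein-coding mouse genes whose symbols start with Cyp1, Cyp2 or Cyp3 followed by a letter, and that had at least 10 counts in at least 3 libraries. Of 55487 gene identifiers in the count tables, 61 were protein-coding genes of these families by symbol and 40 of those reached the minimum. The other 21 did not, and 6 of them had 0 counts in every library. The 40 members fell into 13 subfamilies. Cyp2c had 13 of them, Cyp2d and Cyp3a 5 each, Cyp2a 4, Cyp2j 3, Cyp1a and Cyp2b 2 each, and Cyp2e, Cyp2f, Cyp2g, Cyp2r, Cyp2s and Cyp2u 1 each. Only Cyp2g1, Cyp3a44 and Cyp2b23 reached 10 counts in fewer than all 12 libraries, with 7, 10 and 11 libraries. The minimum of 3 libraries could be met by 1 group alone.

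The study measured messenger RNA in cultured primary mouse hepatocytes, in 4 groups of 3 libraries. Control cells received neither a scavenger nor FAC (the labels give only these letters), and FAC cells received FAC alone. Lip-1+FAC cells were pretreated on day 2 of culture with liproxstatin-1, described as a scavenger of lipid reactive oxygen species, and MT+FAC cells with Mito-TEMPO, described as a scavenger of mitochondrial reactive oxygen species, before FAC was given. No group received a scavenger without FAC, and the sources used here give no strain, age, dose or time of FAC. Nothing in them says that replicates came from separate animals or cultures, so p-values measure the spread between these libraries, which may be technical.

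A P450 enzyme binds heme at its active site and takes electrons from the reductase Por, helped by cytochrome b5, to insert oxygen into its substrate. In hepatocytes the Cyp1a genes are classical targets of the aryl hydrocarbon receptor (AhR), the Cyp2b and several Cyp2c genes of the constitutive androstane receptor (CAR, gene Nr1i3), and Cyp3a11 of the pregnane X receptor (PXR, gene Nr1i2). Many members lie side by side in clusters of recently duplicated genes, are highest in hepatocytes near the central vein, and fall when hepatocytes are kept in culture.

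Of the 40 members, 35 had a promoter window in the RefSeq table, which runs from 250 bases before to 50 after the annotated start. The 200 bases before the start are printed for Cyp1a1, the textbook AhR target, and for 4 Cyp2c genes of chromosome 19 that belong to adjoining groups with different measured responses. They run 5′ to 3′ on the gene's own strand, from RefSeq on GRCm38.p6. Capitals mark matches, on either strand, to the searched motifs described after them.
Cyp1a1, chr9:57697413-57697612, plus strand: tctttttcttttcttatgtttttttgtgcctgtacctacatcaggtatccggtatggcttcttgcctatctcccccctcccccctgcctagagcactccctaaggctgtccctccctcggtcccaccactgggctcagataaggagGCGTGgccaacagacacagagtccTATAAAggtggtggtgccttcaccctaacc
Cyp2c67, chr19:39649043-39649242, minus strand: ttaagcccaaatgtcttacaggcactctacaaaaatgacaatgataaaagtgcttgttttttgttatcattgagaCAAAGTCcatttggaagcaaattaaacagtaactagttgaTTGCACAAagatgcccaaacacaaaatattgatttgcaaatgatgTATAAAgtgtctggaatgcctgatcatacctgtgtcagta
Cyp2c69, chr19:39886770-39886969, minus strand: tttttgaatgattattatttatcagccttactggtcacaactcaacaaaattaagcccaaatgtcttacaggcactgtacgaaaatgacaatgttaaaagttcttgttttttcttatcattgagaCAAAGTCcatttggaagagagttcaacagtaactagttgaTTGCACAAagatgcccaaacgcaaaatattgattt
Cyp2c37, chr19:39992224-39992423, plus strand: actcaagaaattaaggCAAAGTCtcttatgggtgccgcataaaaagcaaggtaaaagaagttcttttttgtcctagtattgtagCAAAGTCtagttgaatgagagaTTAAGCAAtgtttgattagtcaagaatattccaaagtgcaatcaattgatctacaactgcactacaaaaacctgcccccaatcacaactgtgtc
Cyp2c50, chr19:40089479-40089678, plus strand: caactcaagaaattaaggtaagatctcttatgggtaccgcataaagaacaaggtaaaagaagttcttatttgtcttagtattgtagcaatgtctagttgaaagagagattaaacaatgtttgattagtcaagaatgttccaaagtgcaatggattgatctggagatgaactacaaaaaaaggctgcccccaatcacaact

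In the Cyp1a1 stretch the capitals are the xenobiotic response element core GCGTG, starting 54 bases before the start (-54), and the TATA box TATAAA at -30. The Cyp2c67 stretch holds the HNF4 core CAAAGTC at -125, the C/EBP motif TTGCNNAA at -85 and a TATA box at -40. In Cyp2c69 the HNF4 core lies at -75 and the C/EBP motif at -35. Cyp2c37 has the HNF4 core at -184 and -116 and a reverse-strand C/EBP motif at -94, and Cyp2c50 holds none of the 9 motifs in its window. Over the full windows of the 35 members, searched on both strands, the TATA box was in 22 (62.9%, against 13.6% of all 32851 windows in the table), the HNF4 core in 11 (31.4%, against 4.44%), the nuclear receptor half-site AGGTCA in 13 (37.1%, against 16.3%) and the C/EBP motif in 10 (28.6%, against 10.8%). GCGTG was in 5 members (14.3%, against 32.4%), namely Cyp1a1, Cyp2b10, Cyp2c68, Cyp2j9 and Cyp2r1. The D-box TTANGTAA occurred in Cyp2c38 alone (2.86%, against 2.32%), and the antioxidant response element TGACNNNGC in Cyp2j6 alone (2.86%, against 12.4%). The HNF1 motif and the PXR-type everted repeat ER6 were in 0 members and in 0.399% and 0% of all windows. A match is a description of letters in this window only, and the AGGTCA half-site is part of ER6. The TATAAA matches lay anywhere from -234 in Cyp3a11 to 41 in Cyp2c40, some of them on the reverse strand. Duplicated members with much alike windows, such as Cyp2c40, Cyp2c67, Cyp2c68 and Cyp2c69, were each counted. Members were counted per gene and the whole table per window, so no enrichment was tested.

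Gene-assigned counts were 22991598 to 31683376 per library, apart from FAC replicate 2 with 52529278. Libraries of a group varied by a common biological coefficient of variation of 9.71%. All 10 annotated hepatocyte markers were expressed, led by Alb at a mean of 9093 CPM (counts scaled to the library total), and their summed level was 22140 to 23230 CPM over the control and FAC libraries and 18150 to 20060 over both pretreated groups. Of 10 macrophage markers 3 had a mean of at least 1 CPM. The sum of the 10 was 225.1 to 256.9 in control, 290.5 to 323.3 in FAC, 117.7 to 147.6 with Lip-1+FAC and 144.1 to 175.8 with MT+FAC. Most of this sum was Cd68 alone, at a mean of 197.7 CPM over the libraries. The sum of 7 cholangiocyte markers, 4 of them at 1 CPM or more and led by Spp1, was 81.4 to 93.6, 112.4 to 143.5, 127.2 to 138.4 and 123.5 to 163.3 CPM in the same order. The sum of 9 stellate and fibroblast markers, 4 at 1 CPM or more, was 20.4 to 28.6 in control, 30.1 to 38.6 in FAC, 14.5 to 17.4 with Lip-1+FAC and 16.0 to 20.96 with MT+FAC. The sum of 9 endothelial markers, 7 at 1 CPM or more, was 37.6 to 39.8 over control and FAC and 29.4 to 34.0 over the pretreated groups. Of 6 lymphocyte markers 5 had 0 counts in every library. The part of these shifts in the P450 values was not tested, and in bulk RNA fewer cells of a type and less RNA per cell cannot be told apart.

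Counts were of reads mapped to 1 place, and 21 of the 40 members have another annotated transcript at least 95% identical over at least 200 bases, so that their values are uncertain. These are all Cyp2a and Cyp2d members, Cyp2b10, Cyp2g1, Cyp3a25, Cyp3a44, Cyp3a59 and 7 of the 13 Cyp2c genes. The share of reads mapped to several places was 5.53 to 5.94% in control, 5.85 to 6.23% in FAC, 4.93 to 5.20% with Lip-1+FAC and 4.88 to 5.05% with MT+FAC, and its part in the members' differences was not tested.

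To compare genes, levels were scaled to CPM per kilobase of merged exon length, so ranks depend on the annotated length. Cyp3a11, with 5093 bases, had a mean of 883 CPM and Cyp2d10, with 1648 bases, 894.6 CPM. Near-identical copies make the ranks uncertain too. On the per-kilobase scale the P450 RNA of these cells was made up mainly of a few genes. Averaged over the 12 libraries Cyp2b10, the phenobarbital-inducible CAR target, was highest at 642.6, followed by Cyp2d10 at 542.9, Cyp2c70 at 367.1, Cyp2a5 at 358.6, Cyp2a12 at 249.7, Cyp3a11 at 173.4 and Cyp2e1 at 125.8. The order changed with the group. In FAC Cyp2d10 (512 ± 5.88, mean ± SD, n = 3) was highest and Cyp2b10 (318 ± 29.2) was near Cyp2c70 (336 ± 16.6) and Cyp2a5 (302 ± 31.2). In the other 3 groups Cyp2b10 was highest, followed by Cyp2d10 in control and with MT+FAC, and with Lip-1+FAC by Cyp2a5 (543 ± 48.9) and Cyp2d10 (493 ± 15.7), whose means lay about 1 SD of Cyp2a5 apart. At the low end, 7 members averaged under 1 CPM per kilobase. The summed level of all members was 3235 ± 31.3 CPM per kilobase in control (mean ± SD, n = 3), 2485 ± 56.7 in FAC, 3382 ± 112 with Lip-1+FAC and 3241 ± 167 with MT+FAC, and the FAC libraries did not overlap the others. By subfamily, Cyp2d gave 23.2% of the sum over all libraries, Cyp2b 20.8%, Cyp2a and Cyp2c 19.8% each, and Cyp3a 8.18%. This order also differed by group. Cyp2d led in control (25.1%, Cyp2b 22.3%) and in FAC (27.2%), where Cyp2b was down to 12.8%. Cyp2a led with Lip-1+FAC (25.2%, Cyp2b 22.5%, Cyp2d 19.5%) and Cyp2b with MT+FAC (23.8% ± 1.02, SD, n = 3, beside 22.2% ± 0.469 for Cyp2d).

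The subfamilies followed different courses over the 4 groups, as the plot of summed subfamily levels shows. Cyp2b stood at 722 ± 33.0 CPM per kilobase in control, 318 ± 29.3 in FAC, 761 ± 45.0 with Lip-1+FAC and 771 ± 65.8 with MT+FAC, so that it was low in FAC and near the control level with either pretreatment. Cyp2a was similar in control and FAC, at 454 ± 10.8 and 449.5 ± 53.6, and higher in Lip-1+FAC and MT+FAC, at 854 ± 54.1 and 686 ± 45.9. Cyp2e, which is Cyp2e1 alone, went the other way, from 155 ± 23.4 in control and 208 ± 30.2 in FAC to 65.7 ± 6.07 and 73.9 ± 7.28 in the pretreated groups. Cyp3a was 280.5 ± 20.1 in control, 195 ± 4.49 in FAC, 280.4 ± 8.59 with Lip-1+FAC and 254 ± 17.1 with MT+FAC, a course of the same kind as that of Cyp2b but shallower. Cyp2d was 812 ± 14.0 in control and 676 ± 12.5 in FAC and stood at 659 ± 18.0 and 719 ± 21.6 after pretreatment. These sums are descriptions without a test. As shares of the whole P450 sum, Cyp2a went from 14.1% in control to 25.2% in Lip-1+FAC, and Cyp2b from 22.3% in control to 12.8% in FAC.

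**Figure D1:**
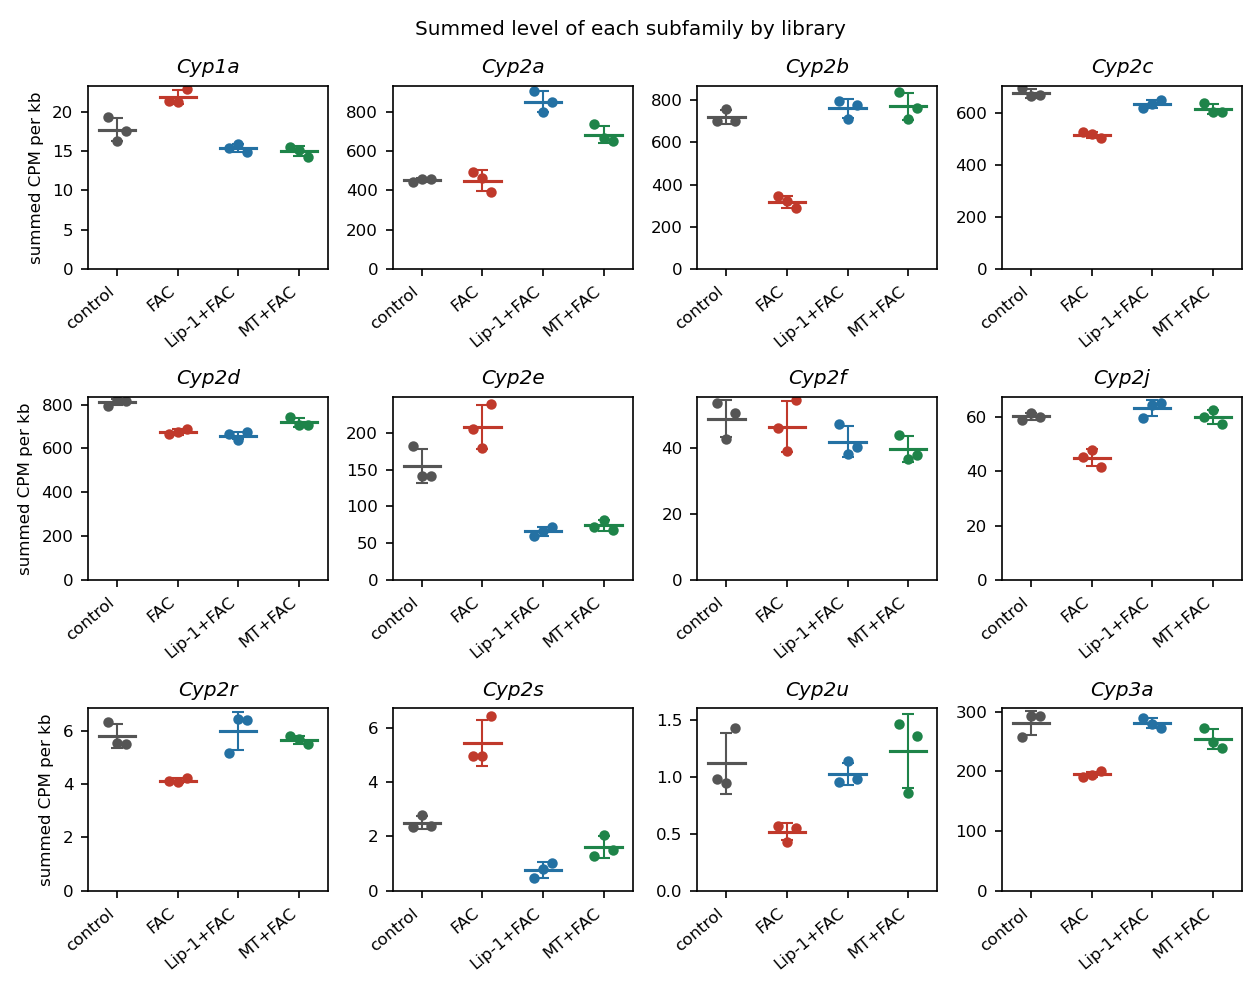
Summed level of 12 subfamilies (vertical axis, CPM per kilobase of exon, from 0, a different range in each panel) in the 4 groups, with Cyp2g left out for its low counts. Each point is a library, and bars are the mean ± SD of 3 libraries; Cyp2b was 317.8 in FAC against 721.6 in control and 761.1 and 770.9 in the pretreated groups, while Cyp2a was highest in Lip-1+FAC at 853.8.

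Counted gene by gene, FAC against control gave 6 members called higher and 20 called lower by edgeR's quasi-likelihood test at a Benjamini-Hochberg adjusted p under 0.05. That was 65% of the members called, where 36.6% of all 13535 genes tested were called, 17.5% higher and 19.1% lower. The members' median log2 fold change was -0.28 against -0.01 over all genes. With offsets for GC content and transcript length in the fit, 11 members were called higher and 17 lower, and of all genes tested 37.2% were called, 17.9% higher and 19.3% lower.

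Against FAC alone, Lip-1+FAC had 18 members higher and 9 lower (67.5% called, against 39.9% of all genes tested, 20.7% higher and 19.2% lower), with a members' median of 0.11 against 0.00 for all genes. MT+FAC had 17 higher and 9 lower (65% called, against 40.9% of all genes tested, 21.2% higher and 19.7% lower), with a median of 0.09 against 0.00. These 3 comparisons share the FAC libraries, so a member's FAC level enters all of them. MT+FAC against Lip-1+FAC gave 1 member higher and 1 lower, 5% of the members where 1.34% of all genes tested were called (0.465% higher and 0.879% lower).

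Against control, Lip-1+FAC had 7 members higher and 13 lower (50% called, against 30.2% of all genes tested, 15.4% higher and 14.8% lower). MT+FAC had 5 higher and 11 lower against control (40% called, against 19.8% of all genes tested, 9.71% higher and 10.1% lower). The members' medians were -0.15 and -0.13, beside -0.02 and 0.00 for all genes. Offsets for GC content and length left 8 members higher and 5 lower for Lip-1+FAC, where 27.4% of all genes tested were called, 15% higher and 12.4% lower. For MT+FAC they left 4 members higher and 6 lower, where 17.8% of all genes were called, 8.47% higher and 9.29% lower. The heat map shows members going in both directions within Cyp2a, Cyp2c and Cyp2d.

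**Figure D2:**
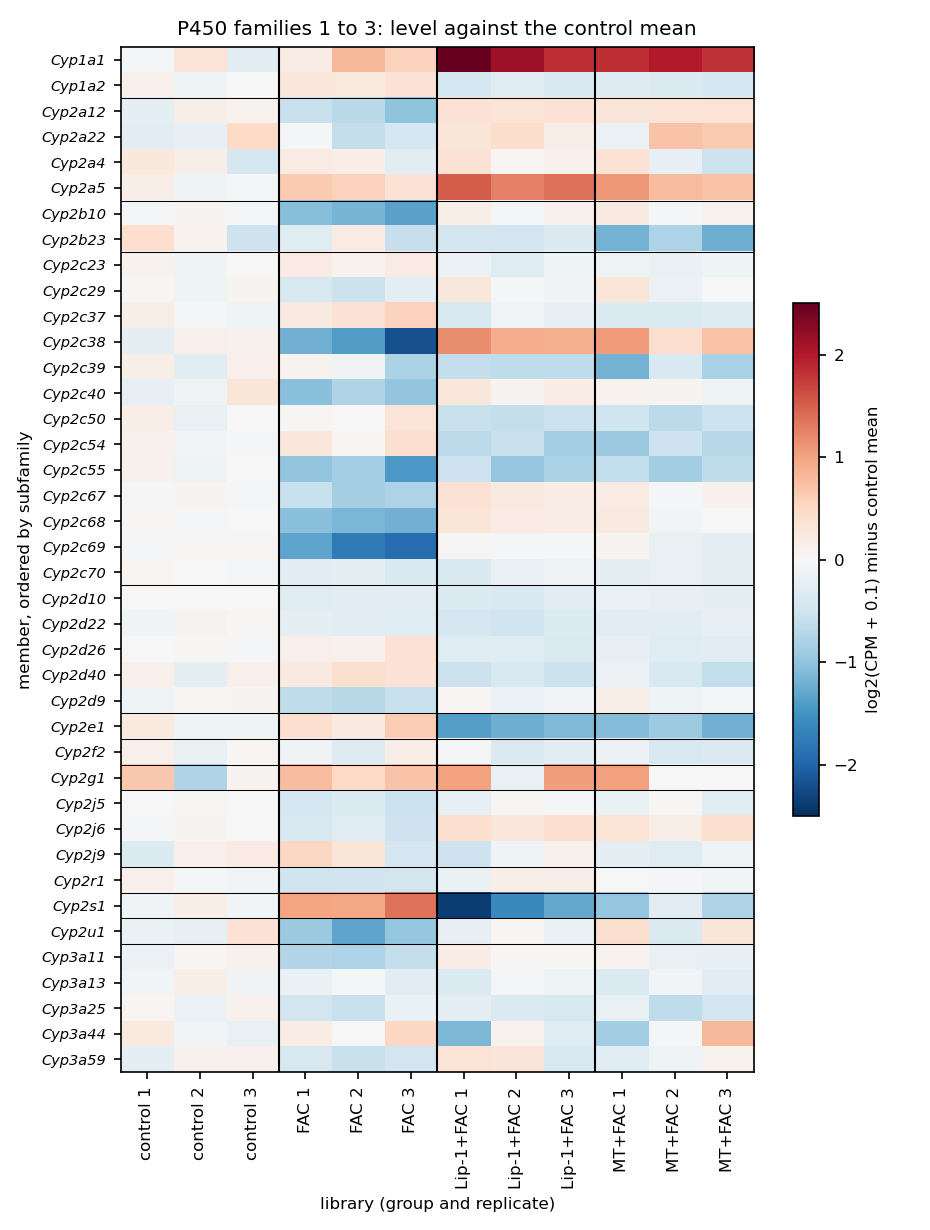
Level of each of the 40 members (rows, ordered by subfamily) in each of the 12 libraries (columns), as log2(CPM + 0.1) minus the mean of the 3 control libraries. The FAC columns are blue for most members, led by Cyp2c69, Cyp2c38 and Cyp2b10, and the pretreated columns are blue for Cyp2e1 and Cyp2s1 and red for Cyp1a1 and Cyp2a5.

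Of the Cyp1a genes, Cyp1a1 rose with pretreatment while its neighbour Cyp1a2 rose slightly with FAC and fell with pretreatment. Cyp1a1, the AhR-induced oxidase of polycyclic aromatic hydrocarbons (chr9:57687928-57703824 on GRCm38), had 1.15, 1.501 and 0.947 CPM in the control libraries, 1.35, 2.16 and 1.82 in FAC, 7.28, 5.43 and 4.48 with Lip-1+FAC and 4.50, 4.95 and 4.40 with MT+FAC. Control and FAC libraries overlapped, and every pretreated library was above all of them. The log2 difference of FAC against control was 0.58 ± 0.26 (SE), not called at an adjusted p of 0.0848. Lip-1+FAC was 3.17-fold above FAC (log2 1.67 ± 0.22, adjusted p = 1.33e-05) and MT+FAC 2.56-fold (log2 1.35 ± 0.23, adjusted p = 0.000135). Against control the log2 rises were 2.25 ± 0.24 and 1.94 ± 0.24.

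Cyp1a2, which oxidizes caffeine and aromatic amines and is expressed near the central vein (chr9:57676937-57683703), was far more abundant than Cyp1a1, at 17.3 ± 1.56 CPM per kilobase in control against 0.431 ± 0.1. It had 38.1, 31.8 and 34.7 CPM in the control libraries, 42.1, 41.2 and 44.7 in FAC, 25.7, 28.2 and 26.8 with Lip-1+FAC and 27.9, 27.0 and 25.5 with MT+FAC. The groups did not overlap between FAC and control or between FAC and either pretreated group. FAC was 1.23-fold above control (log2 0.29 ± 0.08, adjusted p = 0.00836), a call that was lost without control replicate 2 (log2 value 0.23). Lip-1+FAC and MT+FAC lay below FAC, with log2 differences of -0.67 ± 0.08 (adjusted p = 4.6e-06) and -0.67 ± 0.08 (adjusted p = 5.33e-06).

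**Figure D3:**
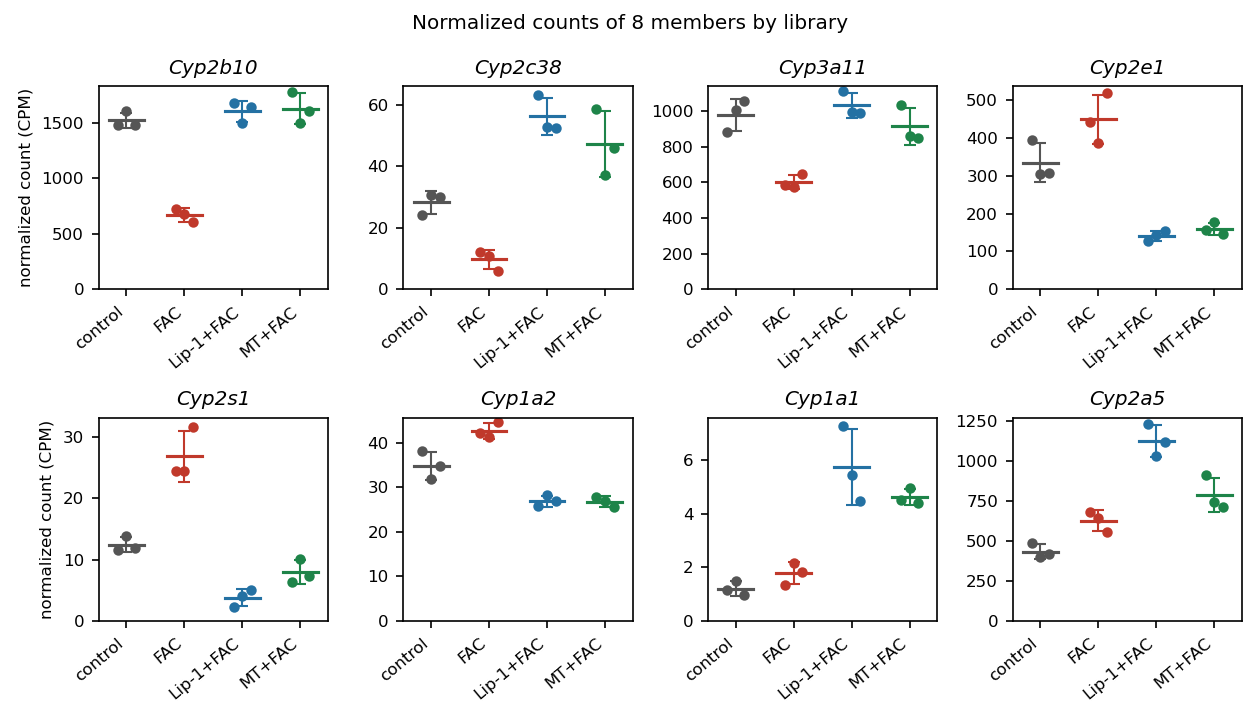
Normalized counts (CPM, from 0, with a different range in each panel) of 8 members in the 4 groups; points are libraries and bars the mean ± SD of 3. Cyp2b10, Cyp2c38 and Cyp3a11 are lowest in FAC, Cyp2e1, Cyp2s1 and Cyp1a2 are highest in FAC and lower in both pretreated groups, and Cyp1a1 and Cyp2a5 are highest in Lip-1+FAC.

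In the Cyp2a subfamily Cyp2a5 rose at each step and Cyp2a12 fell with FAC and rose with pretreatment. Cyp2a5, the coumarin hydroxylase of mouse liver (chr7:26835305-26843548), had 484, 399 and 416 CPM in the control libraries, 681, 642 and 554 in FAC, 1230, 1028 and 1120 with Lip-1+FAC and 910.5, 746 and 710.3 with MT+FAC. All FAC libraries were above all control libraries, and all Lip-1+FAC libraries above all FAC libraries. FAC was 1.45-fold above control (log2 0.53 ± 0.11, adjusted p = 0.0019), Lip-1+FAC 1.80-fold above FAC (log2 0.85 ± 0.11, adjusted p = 4.42e-05) and MT+FAC 1.26-fold above FAC (log2 0.33 ± 0.11, adjusted p = 0.0254). The last of these calls was lost without FAC replicate 3 or MT+FAC replicate 1 (log2 values 0.21 to 0.26). Cyp2a5 was also 1 of the members that differed between the scavengers, with MT+FAC below Lip-1+FAC at a log2 difference of -0.51 ± 0.11 (adjusted p = 0.0379). That call was lost without Lip-1+FAC replicate 1 or 3 or MT+FAC replicate 2 or 3 (log2 values -0.52 to -0.45).

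Cyp2a12, which restores a hydroxyl group on secondary bile acids (chr7:27029081-27037375), had 711, 919 and 890.2 CPM in the control libraries, 564, 524 and 417 in FAC, 1076, 1041 and 1074 with Lip-1+FAC and 1024, 1051 and 1064 with MT+FAC. FAC libraries lay below every other library. The log2 change was -0.74 ± 0.10 (adjusted p = 8.69e-05) for FAC against control, 1.08 ± 0.10 (adjusted p = 2.63e-06) for Lip-1+FAC against FAC and 1.06 ± 0.10 (adjusted p = 3.99e-06) for MT+FAC against FAC. Against control it was called higher in Lip-1+FAC at 0.34, a call lost with a replicate block and offsets for GC content and length together or without control replicate 1 or Lip-1+FAC replicate 1 or 3 (log2 values 0.24 to 0.36). The MT+FAC value of 0.32 against control was also called, and was lost with upper-quartile scaling, with a replicate block, with offsets for GC content and length (also with a replicate block), with the stranded columns summed, after thinning or without control replicate 1 or 3 or MT+FAC replicate 1, 2 or 3 (log2 values 0.21 to 0.36). Cyp2a22, whose transcript is 95.41% identical to that of Cyp2a12, had log2 values of -0.40 (not called), 0.68 and 0.83 in the same comparisons. Its Lip-1+FAC call was lost with RLE scaling, with upper-quartile scaling, with a replicate block, with offsets for GC content and length (also with a replicate block), after thinning or without FAC replicate 2 or 3 or Lip-1+FAC replicate 1, 2 or 3 (log2 values 0.54 to 0.75), and its MT+FAC call without FAC replicate 2 or MT+FAC replicate 2 or 3 (log2 values 0.65 to 0.72). Cyp2a4, a steroid hydroxylase 98.22% identical in transcript to Cyp2a5, was called in none of the 6 comparisons, with log2 values from -0.24 to 0.15, where Cyp2a5 was called in all 6.

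Cyp2b10 gave nearly all of the Cyp2b sum. It lies at chr7:25897620-25926624 and had 1482, 1604 and 1484 CPM in the control libraries, 727, 679 and 605 in FAC, 1680, 1500 and 1641 with Lip-1+FAC and 1774, 1498 and 1611 with MT+FAC. The FAC libraries were all far below the rest, and control and pretreated libraries overlapped. FAC was 2.27-fold below control (log2 -1.18 ± 0.07, adjusted p = 4.34e-09). Lip-1+FAC was 2.40-fold above FAC (log2 1.26 ± 0.07, adjusted p = 1.82e-09) and MT+FAC 2.43-fold (log2 1.28 ± 0.07, adjusted p = 3.12e-09). Against control the values were 0.08 ± 0.07 (adjusted p = 0.461) and 0.10 ± 0.07 (adjusted p = 0.388), which were not called. Cyp2b23, at 0.869 ± 0.302 CPM in control, was called only in MT+FAC against control, at -1.27, and that call was lost with no filter on low counts, with only the libraries compared fitted, with offsets for GC content and length (also with a replicate block) or without control replicate 1 or 2 or MT+FAC replicate 1, 2 or 3 (log2 values -1.48 to -1.02).

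Among the Cyp2c genes, which act on arachidonic acid, retinoids and drugs, a pair of adjoining runs on chromosome 19 had different values. In genome order Cyp2c55, Cyp2c29, Cyp2c38, Cyp2c39, Cyp2c67, Cyp2c68, Cyp2c40, Cyp2c69, Cyp2c37, Cyp2c54, Cyp2c50 and Cyp2c70 lie between positions 39007019 and 40187333 of GRCm38, and Cyp2c23 lies 3818 kb further on. The minus-strand run from Cyp2c67 to Cyp2c69 fell in FAC and rose with each pretreatment at all 4 genes. The adjoining run of Cyp2c37, Cyp2c54 and Cyp2c50, 105.6 kb away, had FAC values of 0.12 to 0.39 against control, of which that of Cyp2c37 was called, and all 3 genes fell with each pretreatment. The transcripts are 96.36 to 98.03% identical within the first run and 95.17 to 95.85% within the second, and this likeness makes the split of reads within a run uncertain. The RefSeq promoter windows of both runs, not all of them printed, are 90.6 to 98.9% identical within the first run and 91.1% between Cyp2c37 and Cyp2c50, but 67.7 to 72% between the runs, over local alignments of 150 to 299 columns. These runs were chosen for their different values, and likeness of windows did not go with the values throughout the cluster. The window of Cyp2c38 is 82% and 83.2% identical to the pair of windows listed for Cyp2c39, yet Cyp2c38 changed by -1.54 with FAC and 2.52 with Lip-1+FAC against FAC, where Cyp2c39 had -0.22 and -0.42, not called. Cyp2c54 had no window in the table.

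In the first run, Cyp2c68 (chr19:39688834-39741054) had 137, 131 and 137 CPM in the control libraries, 65.2, 61.2 and 58.5 in FAC, 167, 155 and 153 with Lip-1+FAC and 157, 129 and 136 with MT+FAC. FAC libraries were below all others. Its log2 change was -1.13 ± 0.07 (adjusted p = 4.34e-09) in FAC against control, 1.36 ± 0.07 (adjusted p = 5.3e-10) in Lip-1+FAC against FAC and 1.19 ± 0.07 (adjusted p = 3.78e-09) in MT+FAC against FAC. Cyp2c69 (chr19:39842814-39886799) had 19.9, 21.2 and 21.1 CPM in the control libraries, 8.29, 5.995 and 5.45 in FAC, 21.2, 20.4 and 20 with Lip-1+FAC and 21.8, 18.1 and 17.4 with MT+FAC. It had the largest fall of any member with FAC, 3.17-fold (log2 -1.66 ± 0.13, adjusted p = 5.03e-08), and rose by 1.65 ± 0.13 (adjusted p = 4.98e-08) and 1.54 ± 0.13 (adjusted p = 1.49e-07) with the scavengers, to levels that overlapped control. Cyp2c67 and Cyp2c40 changed by -0.72 and -0.95 with FAC, by 0.98 and 1.10 in Lip-1+FAC against FAC, and by 0.82 and 0.95 in MT+FAC against FAC, all called.

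In the second run, Cyp2c37 (chr19:39992424-40012243) had 10.8, 9.42 and 8.96 CPM in the control libraries, 11.4, 12.5 and 14.5 in FAC, 7.46, 9.26 and 8.42 with Lip-1+FAC and 7.66, 7.57 and 7.73 with MT+FAC. Its FAC libraries were above all control and all pretreated libraries. FAC against control was 0.39 ± 0.13 (adjusted p = 0.0209) on the log2 scale, a call lost after thinning or without control replicate 2 or 3 or FAC replicate 3 (log2 values 0.30 to 0.37). The log2 difference from FAC was -0.61 ± 0.13 (adjusted p = 0.00101) with Lip-1+FAC and -0.74 ± 0.13 (adjusted p = 0.00019) with MT+FAC. Cyp2c54 (chr19:40037940-40073827) had 15.5, 13.8 and 14.0 CPM in the control libraries, 17.5, 14.9 and 19.2 in FAC, 9.06, 9.83 and 7.99 with Lip-1+FAC and 7.50, 10 and 8.72 with MT+FAC. It was not called between FAC and control (0.25 ± 0.13, adjusted p = 0.139), and it was lower with Lip-1+FAC (-0.93 ± 0.13, adjusted p = 2.02e-05) and MT+FAC (-0.97 ± 0.13, adjusted p = 1.61e-05). Cyp2c50 (chr19:40089688-40113950) had 73.0, 57.3 and 65.9 CPM in the control libraries, 66.3, 65.1 and 81.7 in FAC, 44.0, 43.1 and 44.9 with Lip-1+FAC and 45.7, 41.3 and 45.2 with MT+FAC. Its control and FAC libraries overlapped (log2 0.12 ± 0.09, adjusted p = 0.342), and both pretreated groups were below both of them, with log2 differences from FAC of -0.69 ± 0.09 (adjusted p = 1.54e-05) and -0.69 ± 0.09 (adjusted p = 1.88e-05). Against control Cyp2c54 and Cyp2c50 were lower, with log2 values of -0.68 and -0.57 in Lip-1+FAC and -0.72 and -0.57 in MT+FAC, all called.

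**Figure D4:**
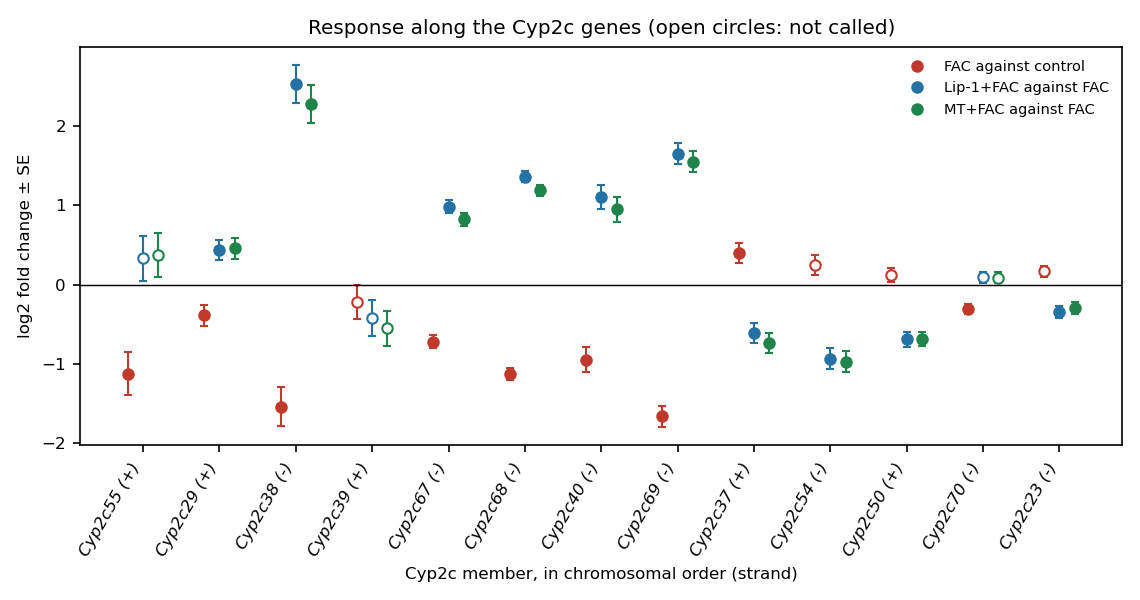
Log2 fold change ± SE (vertical axis) of the 13 Cyp2c genes in genome order (horizontal axis, strand in brackets, not to scale), for FAC against control, Lip-1+FAC against FAC and MT+FAC against FAC; filled points were called. Cyp2c67 to Cyp2c69 lie between -0.72 and -1.66 with FAC and at 0.82 to 1.65 with the scavengers, and Cyp2c37 to Cyp2c50 lie at 0.12 to 0.39 and then between -0.61 and -0.97.

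Cyp2c38, an arachidonic acid epoxygenase lying before the first run (chr19:39389556-39463075), had 24.1, 30.8 and 30.2 CPM in the control libraries, 12.3, 10.7 and 6.10 in FAC, 63.3, 52.8 and 52.6 with Lip-1+FAC and 58.7, 37.2 and 46.1 with MT+FAC. FAC libraries were lowest and pretreated libraries above control. Its 5.75-fold rise in Lip-1+FAC over FAC (log2 2.52 ± 0.24, adjusted p = 1.7e-05) was the largest of any member, and it rose 4.84-fold in MT+FAC (log2 2.27 ± 0.24, adjusted p = 4.13e-05), where FAC against control was -1.54 ± 0.24 (adjusted p = 0.000651) on the log2 scale. Against control it was higher in Lip-1+FAC by 0.99 ± 0.22 (adjusted p = 0.00801). The MT+FAC value against control, 0.74, was called and was lost with no filter on low counts, with a replicate block, with a replicate block and offsets for GC content and length together or without control replicate 1, 2 or 3 or MT+FAC replicate 1 or 3 (log2 values 0.55 to 0.80).

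Cyp2c55, which makes hydroxylated arachidonic acid products (chr19:39007019-39042693), had 2.31, 1.95 and 2.13 CPM in the control libraries, 1.02, 1.13 and 0.727 in FAC, 1.46, 1.04 and 1.18 with Lip-1+FAC and 1.34, 1.12 and 1.34 with MT+FAC. It fell with FAC (log2 -1.12 ± 0.27, adjusted p = 0.00311), and the pretreated libraries overlapped the FAC libraries (0.33 ± 0.28 and 0.37 ± 0.28, not called). Cyp2c39, a retinoic acid hydroxylase (chr19:39510862-39568529), had 7.35, 5.48 and 7.18 CPM in the control libraries, 7.01, 6.22 and 3.79 in FAC, 4.37, 4.22 and 4.23 with Lip-1+FAC and 2.88, 5.08 and 3.71 with MT+FAC. No comparison with FAC was called for Cyp2c39, and it was lower than control in Lip-1+FAC, at -0.64 ± 0.22 (adjusted p = 0.0394), and in MT+FAC, at -0.77 ± 0.23 (adjusted p = 0.0219). Those calls were lost with a replicate block, with offsets for GC content and length (also with a replicate block) or without control replicate 1 or 3 or Lip-1+FAC replicate 1, 2 or 3 (log2 values -0.65 to -0.56) and, for MT+FAC, without control replicate 1 or 3 or MT+FAC replicate 1 or 3 (log2 values -0.74 to -0.59).

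Cyp2c70, which makes the muricholic acids of mouse bile (chr19:40153353-40187333), was the most abundant Cyp2c gene per kilobase. It had 854, 821 and 801 CPM in the control libraries, 676, 693 and 629.6 in FAC, 635, 726 and 765 with Lip-1+FAC and 698, 729.5 and 697 with MT+FAC. Its control libraries were above all others. FAC was lower, at -0.31 ± 0.06 (adjusted p = 0.000973) on the log2 scale, and the pretreated groups differed from FAC by 0.09 ± 0.06 and 0.09 ± 0.06, not called. Cyp2c29, a CAR target, changed by -0.39 with FAC, 0.44 in Lip-1+FAC against FAC and 0.45 in MT+FAC against FAC. These 3 calls were lost, in that order, with offsets for GC content and length or without control replicate 1 or 3 or FAC replicate 1 or 2 (log2 values -0.38 to -0.22); with offsets for GC content and length or without FAC replicate 2 (log2 values 0.29 to 0.37); and without FAC replicate 2 (log2 value 0.38). Cyp2c23, an epoxygenase better known in kidney, was not called with FAC (0.17) and fell (log2 -0.34 and -0.30) with the scavengers.

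Among the Cyp2d genes, Cyp2d9, Cyp2d10 and Cyp2d22 were lower with FAC, and Cyp2d26 and Cyp2d40 were lower with pretreatment. Cyp2d10, the most abundant (chr15:82402846-82407195), had 1012, 1036 and 1025 CPM in the control libraries, 832, 851 and 847 in FAC, 809, 789 and 840.4 with Lip-1+FAC and 919, 894 and 881 with MT+FAC. Control libraries were above all others. FAC was lower than control, at -0.28 ± 0.05 (adjusted p = 0.000176) on the log2 scale, and Lip-1+FAC and MT+FAC differed from FAC by -0.05 ± 0.05 and 0.09 ± 0.05, not called. With offsets for GC content and length the Lip-1+FAC value changed sign and was called, at 0.18. Against control Cyp2d10 was called lower in Lip-1+FAC (-0.33) and MT+FAC (-0.19), and both calls were lost with those offsets (-0.12 and -0.05).

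Cyp2d40 (chr15:82759833-82764183), at a lower level, had 10.4, 7.95 and 10.4 CPM in the control libraries, 11.1, 12.5 and 12.3 in FAC, 6.55, 7.26 and 6.55 with Lip-1+FAC and 8.60, 7.28 and 6.17 with MT+FAC. FAC libraries were above control and pretreated libraries. The FAC value against control, 0.33 ± 0.14 (adjusted p = 0.0763), was not called, and Lip-1+FAC and MT+FAC were lower than FAC, at -0.82 ± 0.14 (adjusted p = 0.000174) and -0.70 ± 0.14 (adjusted p = 0.000707). Lip-1+FAC was also below control (-0.49), a call lost with offsets for GC content and length (also with a replicate block) or without control replicate 1 or 3 or Lip-1+FAC replicate 1 or 3 (log2 values -0.47 to -0.32). Cyp2d9, a male-specific testosterone hydroxylase, changed by -0.63 with FAC and by 0.58 and 0.64 with the scavengers, all called, while 9.26% of its exons overlap another gene. Cyp2d22 fell with FAC (log2 -0.27). Cyp2d26 rose with FAC by 0.20, a call lost without control replicate 1 or 3 or FAC replicate 3 (log2 values 0.12 to 0.19), and fell (log2 -0.52 and -0.46) with the scavengers, the first value being -0.32 with those offsets.

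Cyp2e1, the ethanol- and acetaminophen-oxidizing P450 that is known to leak reactive oxygen (chr7:140763739-140774987), was among the members with the largest falls after pretreatment. It had 393, 305 and 306 CPM in the control libraries, 443, 388 and 518 in FAC, 128, 142.2 and 155 with Lip-1+FAC and 156, 176 and 145.5 with MT+FAC. Control and FAC libraries overlapped, and every pretreated library was below all of them. FAC against control was 0.42 ± 0.13 (adjusted p = 0.0207) on the log2 scale, a call lost without control replicate 2 or 3 or FAC replicate 3 (log2 values 0.31 to 0.36). Lip-1+FAC was 3.17-fold below FAC (log2 -1.66 ± 0.13, adjusted p = 1.44e-06) and MT+FAC 2.82-fold (log2 -1.49 ± 0.13, adjusted p = 3.99e-06). Against control the log2 falls were -1.24 ± 0.13 (adjusted p = 2.45e-05) and -1.07 ± 0.13 (adjusted p = 0.00019), so both pretreated groups lay below untreated cells as well.

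Cyp2s1, a P450 expressed mainly outside the liver (chr7:25802475-25816913), followed the same order at a much lower level. It had 11.6, 13.8 and 11.8 CPM in the control libraries, 24.4, 24.4 and 31.7 in FAC, 2.29, 3.97 and 5.03 with Lip-1+FAC and 6.31, 10.1 and 7.34 with MT+FAC. FAC libraries were above all others and Lip-1+FAC libraries below all others. FAC was 2.16-fold above control (log2 1.11 ± 0.21, adjusted p = 0.000974), and Lip-1+FAC 7.17-fold below FAC (log2 -2.84 ± 0.24, adjusted p = 6.76e-07), the largest fall among members. MT+FAC was 3.38-fold below FAC (log2 -1.76 ± 0.22, adjusted p = 2.9e-05) and above Lip-1+FAC by 1.08 ± 0.24 (adjusted p = 0.0472). The last call was lost with only the libraries compared fitted, with offsets for GC content and length or without Lip-1+FAC replicate 1 or 2 or MT+FAC replicate 2 or 3 (log2 values 0.82 to 1.13). Of its exons 5.27% overlap another gene, and reads that fell on both genes were set aside as ambiguous and not counted. Cyp2f2, the naphthalene-oxidizing enzyme of airway and periportal liver (chr7:27119909-27133660), had 108, 86.2 and 102 CPM in the control libraries, 92.8, 78.8 and 109.9 in FAC, 95.6, 77.0 and 81.3 with Lip-1+FAC and 89.0, 74.0 and 76.7 with MT+FAC. The groups overlapped and no comparison was called, with log2 values of -0.08 ± 0.13 for FAC against control and -0.15 ± 0.13 and -0.23 ± 0.13 for the scavengers against FAC; 13.5% of its exons overlap another gene. Cyp2g1, an olfactory P450, had 0.47, 0.113 and 0.276 CPM in the control libraries, 0.511, 0.402 and 0.484 in FAC, 0.619, 0.214 and 0.634 with Lip-1+FAC and 0.625, 0.256 and 0.259 with MT+FAC, and was called nowhere.

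The Cyp2j, Cyp2r and Cyp2u genes fell with FAC and rose with both scavengers, apart from Cyp2j9. Cyp2j5, an arachidonic acid epoxygenase of liver and kidney (chr4:96628773-96664154), had 100.1, 103 and 101 CPM in the control libraries, 74.8, 79.3 and 69.6 in FAC, 87.2, 103 and 99.6 with Lip-1+FAC and 90.1, 103 and 81.7 with MT+FAC. FAC libraries were below the rest. Its log2 changes were -0.44 ± 0.08 (adjusted p = 0.000372) with FAC, 0.37 ± 0.08 (adjusted p = 0.0014) in Lip-1+FAC against FAC and 0.29 ± 0.08 (adjusted p = 0.00752) in MT+FAC against FAC. The last call was lost without MT+FAC replicate 2 (log2 value 0.19). Cyp2j6 (chr4:96516138-96553661) had 57.7, 62.9 and 59.8 CPM in the control libraries, 45.6, 48.4 and 41.8 in FAC, 80.5, 73.0 and 80.8 with Lip-1+FAC and 76.1, 67.2 and 80.2 with MT+FAC. It went below control with FAC (-0.41 ± 0.08, adjusted p = 0.000511, and -0.26 with offsets for GC content and length) and above FAC with Lip-1+FAC (0.78 ± 0.08, adjusted p = 4.45e-07) and MT+FAC (0.71 ± 0.08, adjusted p = 1.53e-06), ending above control by 0.38 and 0.31. The MT+FAC call against control was lost without MT+FAC replicate 3 (log2 value 0.26). Cyp2j9 was called in no comparison.

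Cyp2r1, the main vitamin D hydroxylase of liver (chr7:114549682-114562972), had 13.4, 11.7 and 11.6 CPM in the control libraries, 8.66, 8.58 and 8.92 in FAC, 10.9, 13.6 and 13.5 with Lip-1+FAC and 12.2, 12.01 and 11.6 with MT+FAC. It was 1.41-fold lower with FAC (log2 -0.49 ± 0.11, adjusted p = 0.00261) and higher than FAC by 0.54 ± 0.11 (adjusted p = 0.00106) with Lip-1+FAC and 0.46 ± 0.11 (adjusted p = 0.00396) with MT+FAC. FAC libraries did not overlap the others. Cyp2u1, a fatty acid hydroxylase (chr3:131288441-131303227), was near the low end, with 5.17, 4.99 and 7.50 CPM in the control libraries, 3.00, 2.26 and 2.91 in FAC, 5.02, 5.97 and 5.16 with Lip-1+FAC and 7.69, 4.50 and 7.12 with MT+FAC. FAC libraries were below all others, at 2.19-fold under control (log2 -1.13 ± 0.22, adjusted p = 0.000533). Lip-1+FAC and MT+FAC were above FAC by 1.00 ± 0.22 (adjusted p = 0.00135) and 1.26 ± 0.22 (adjusted p = 0.000177), and 10.5% of the exons of Cyp2u1 overlap another gene.

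In the Cyp3a subfamily Cyp3a11 fell with FAC and rose with pretreatment. Cyp3a11, the PXR target that corresponds to human CYP3A4 (chr5:145854426-145879964), had 882, 1004 and 1055 CPM in the control libraries, 588, 574 and 647 in FAC, 1114, 997 and 991 with Lip-1+FAC and 1033, 861 and 850.5 with MT+FAC. The FAC libraries were below every other library. FAC was 1.63-fold below control (log2 -0.70 ± 0.08, adjusted p = 6.5e-06). Lip-1+FAC was 1.72-fold above FAC (log2 0.78 ± 0.08, adjusted p = 1.72e-06) and MT+FAC 1.52-fold (log2 0.60 ± 0.08, adjusted p = 2.95e-05), and both overlapped control. Cyp3a25 (chr5:145977194-146009618), whose transcript is 96.99% identical to that of Cyp3a59, had 26.8, 23.4 and 28.0 CPM in the control libraries, 19.0, 17.7 and 23.1 in FAC, 22.0, 20.1 and 19.6 with Lip-1+FAC and 22.7, 16.7 and 18.6 with MT+FAC. It was lower in FAC than in control, at -0.39 ± 0.12 (adjusted p = 0.0174), a call lost with offsets for GC content and length or without control replicate 1 or 3 or FAC replicate 1 or 2 (log2 values -0.37 to -0.28), and did not differ from FAC by a called amount in Lip-1+FAC (0.05 ± 0.12) or MT+FAC (-0.04 ± 0.12). Cyp3a59 was called lower with FAC (-0.50), lost with RLE scaling, with a replicate block, with offsets for GC content and length (also with a replicate block), with the stranded columns summed or without control replicate 2 or 3 or FAC replicate 1, 2 or 3 (log2 values -0.54 to -0.41), and higher in Lip-1+FAC than in FAC (0.62), lost without Lip-1+FAC replicate 1 or 2 (log2 values 0.50 to 0.53). Cyp3a13 and Cyp3a44 were called in none of the 6 comparisons.

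The scavengers were compared directly in MT+FAC against Lip-1+FAC. Besides Cyp2a5 and Cyp2s1, 38 members were not called, with log2 values from -0.73 for Cyp2b23 to 0.53 for Cyp3a44. For the abundant members the differences and their SEs were 0.02 ± 0.07 for Cyp2b10, 0.14 ± 0.05 for Cyp2d10, 0.00 ± 0.06 for Cyp2c70, -0.02 ± 0.10 for Cyp2a12, -0.18 ± 0.08 for Cyp3a11 and 0.17 ± 0.13 for Cyp2e1. A missed threshold does not show that the compounds act alike.

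Genes that serve P450 enzymes were listed as well, and the lists share members, so their counts are not separate evidence. Of 175 genes tested from these lists, 16 stand in a pair of them. Of 10 redox partners, 3 were higher and 1 lower with FAC, 3 and 2 with Lip-1+FAC against FAC, and 2 and 3 with MT+FAC against FAC (medians 0.08, 0.06 and -0.01). These are 40%, 50% and 50% of the list called, where 36.6%, 39.9% and 40.9% of all genes tested were called in the same 3 comparisons. Por, the reductase that feeds all of these enzymes, was 827 ± 42.3 CPM in control, 1088 ± 86.7 in FAC, 614 ± 27.6 with Lip-1+FAC and 643 ± 58.4 with MT+FAC. It rose with FAC (log2 0.40 ± 0.07, adjusted p = 0.000272) and fell with Lip-1+FAC (-0.82 ± 0.07, adjusted p = 9.53e-08) and MT+FAC (-0.76 ± 0.07, adjusted p = 3.37e-07). Cytochrome b5 type B, Cyb5b, changed by -0.20, 0.50 and 0.32, and the first of these calls was lost with offsets for GC content and length (also with a replicate block) (log2 value -0.11). Cyb5r1, a cytochrome b5 reductase, rose by 0.43 with FAC. The most abundant gene of the list was Pgrmc1, a heme-binding partner of P450 enzymes, with log2 values of 0.18, 0.21 and 0.11.

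Of 12 genes of heme supply and breakdown, 2 were higher and 7 lower with FAC, and 5 were higher and 1 lower with Lip-1+FAC, 7 and 1 with MT+FAC, against FAC (medians -0.26, 0.21 and 0.24). The shares called were 75%, 50% and 66.7% of the list, beside 36.6%, 39.9% and 40.9% of all genes. Hmox1, the inducible heme oxygenase, rose from 298 ± 37.7 to 2560 ± 48.7 CPM with FAC (log2 3.10 ± 0.09, adjusted p = 7.2e-12) and fell (log2 -0.79 and -1.02) with the scavengers. Alas1, the rate-limiting enzyme of heme synthesis, changed by -0.39 ± 0.06 (adjusted p = 5.17e-05) with FAC, 0.60 ± 0.06 (adjusted p = 4.37e-07) in Lip-1+FAC against FAC and 0.65 ± 0.06 (adjusted p = 2.49e-07) in MT+FAC against FAC. With FAC, Alad, the next enzyme of the pathway, and Hmox2, the constitutive heme oxygenase, fell (log2 -0.50 and -0.50).

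The receptors that control these genes were measured too. Of 12 xenobiotic receptors and partners tested, 2 were higher and 4 lower with FAC, 3 and 4 with Lip-1+FAC against FAC, and 4 and 3 with MT+FAC against FAC (medians -0.17, 0.11 and -0.02). That was 50%, 58.3% and 58.3% of the list called, beside 36.6%, 39.9% and 40.9% of all genes. Nr1i2, which encodes PXR, went from 20.3 ± 1.20 CPM in control to 10.2 ± 0.614 in FAC (log2 -0.99 ± 0.12, adjusted p = 5.46e-06), and to 11.9 ± 1.74 in Lip-1+FAC (0.22 ± 0.12, adjusted p = 0.167) and 15.9 ± 1.72 in MT+FAC (0.64 ± 0.12, adjusted p = 0.00041). Ahr rose by 0.47 with FAC and fell (log2 -0.32 and -0.25) with the scavengers. Rxrg, a retinoid X receptor, changed by -1.59, 1.96 and 1.72, at 3.51 ± 1.16 CPM in control. Nr1i3, which encodes CAR and was chosen after its values were seen, was scarce, at a mean of 0.316 CPM over the libraries, with log2 values of -0.30 ± 0.64, 0.17 ± 0.64 and -0.25 ± 0.66.

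Of 22 hepatic and circadian regulators tested, 3 were higher and 5 lower with FAC, 4 and 7 with Lip-1+FAC against FAC, and 5 and 5 with MT+FAC against FAC (medians -0.04, -0.02 and -0.02). With 36.4%, 50% and 45.5% of the list called, the shares lie beside 36.6%, 39.9% and 40.9% of all genes, and the first is no higher than that of all genes. Nr1h4, the bile acid receptor FXR, fell with FAC (log2 -1.49 ± 0.07, adjusted p = 1.12e-10) and rose by 0.93 and 0.91 with the scavengers. Hlf, a PAR-type factor under clock control, changed by -1.34, 0.85 and 0.99. Hnf4a, the most abundant of the list, had log2 values of -0.27, -0.07 and 0.03.

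**Figure D5:**
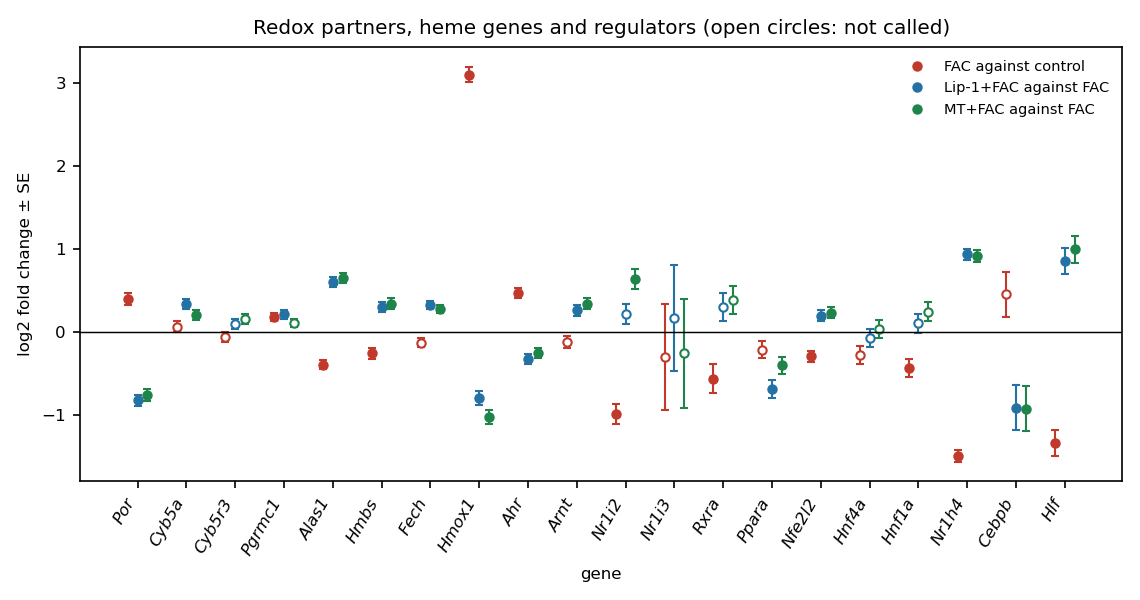
Log2 fold change ± SE of 20 listed genes that serve or control P450 enzymes, picked by hand, for FAC against control, Lip-1+FAC against FAC and MT+FAC against FAC; filled points were called. Hmox1 is highest with FAC at 3.10, and Nr1h4 at -1.49 and Alas1 at -0.39 lie below 0 with FAC and above 0 with both scavengers, while Por lies on the opposite sides.

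Other targets of the same receptors were listed for comparison. Of 6 AhR targets outside the P450 genes that were tested, 3 were higher and 2 lower with FAC, and 4 were higher and 1 lower with each pretreatment against FAC (medians -0.02, 0.86 and 0.54). In each comparison 83.3% of this short list was called, beside 36.6%, 39.9% and 40.9% of all genes. Nqo1, a quinone reductase also under NRF2 control, rose by 1.42 and 1.11 with the scavengers, and Tiparp, an AhR-induced repressor of the receptor, fell (log2 -1.12 and -0.99). Cyp1a1 rose and Cyp1a2 fell in these comparisons. Of 19 CAR and PXR targets, 4 were higher and 7 lower with FAC, and 11 were higher and 5 lower with each pretreatment (medians -0.19, 0.60 and 0.53), or 57.9%, 84.2% and 84.2% called. The most abundant was Ephx1, the microsomal epoxide hydrolase, at -0.19 with FAC, a call lost with a replicate block and offsets for GC content and length together or without control replicate 3 (log2 value -0.16), and at 0.65 and 0.63 with the scavengers. Gstm3, a glutathione S-transferase, rose by 1.83 and 1.76, whereas Ugt1a1, the bilirubin glucuronosyltransferase, fell (log2 -1.13 and -1.21), the second value being -0.71 with the stranded columns summed.

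Of 51 conjugating and other drug-metabolizing enzymes tested, which include 4 of the 6 AhR targets and 8 of the 19 CAR and PXR targets, 4 were higher and 19 lower with FAC, 22 and 15 with Lip-1+FAC against FAC, and 23 and 16 with MT+FAC against FAC (medians -0.14, 0.14 and 0.10). Of this list 45.1%, 72.5% and 76.5% were called, and of all genes tested 36.6%, 39.9% and 40.9%. Sult1c2, a sulfotransferase, fell (log2 -1.93) with FAC and rose by 2.47 and 2.08, and Inmt, an N-methyltransferase, fell (log2 -1.78 and -1.63) with the scavengers. Of 24 P450 genes of other families, 0 were higher and 7 lower with FAC, 10 and 5 with Lip-1+FAC against FAC, and 8 and 4 with MT+FAC against FAC (medians -0.27, 0.18 and 0.18), or 29.2%, 62.5% and 50% called. Cyp26a1, the retinoic acid hydroxylase, fell (log2 -3.39) with FAC. Since Cyp1a2 and Cyp2e1 are pericentral and Cyp2f2 is periportal, zonation lists were counted as well. Of 16 pericentral genes outside the P450 families 2 were higher and 6 lower with FAC, 3 and 8 with Lip-1+FAC against FAC, and 4 and 7 with MT+FAC against FAC (medians -0.03, -0.42 and -0.36), or 50%, 68.8% and 68.8% called. Of 19 periportal genes 3 were higher and 7 lower with FAC, 4 and 9 with Lip-1+FAC, and 3 and 9 with MT+FAC (medians -0.16, -0.70 and -0.59), or 52.6%, 68.4% and 63.2% called. Of all genes tested 19.2% were called lower with Lip-1+FAC and 19.7% with MT+FAC, against FAC.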

How the data were processed

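The deposited files hold raw unstranded counts of reads per gene, whole numbers without normalization. Per the labels' protocols, RNA was extracted with the RNeasy Micro kit, amplified with SMART-Seq v4 and made into Nextera XT libraries for paired-end NovaSeq sequencing, with no molecular identifiers mentioned, so PCR copies cannot be told from separate molecules. Per the submitters' processing notes the authors used STAR and the build GRCm38. The STAR version and annotation are not given in the sources used here. The file of FAC replicate 2 is marked as combined. Of 55487 identifiers 55227 were found in GENCODE M21.

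All 12 libraries were fitted in edgeR 4.0.16 (R 4.3.3; filterByExpr, TMM factors 0.989 to 1.01, robust quasi-likelihood test, 4 group means), which tested 13535 genes. P-values were adjusted by Benjamini-Hochberg over all of them, and called means an adjusted p under 0.05. Log2 fold changes are given ± SE, and CPM values use TMM library sizes. Per-kilobase values use merged exon length. The fit was tested on simulated data. Near-identical copies were found with blastn 2.17.0+. Alternatives were DESeq2 1.42.0, RLE and upper-quartile scaling, no count filter and a mean CPM of at least 5, the stranded columns, thinning to 22991598 counts, only the libraries compared, a replicate block, offsets for GC content and length, and leaving out each library.

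The members and gene lists were chosen with earlier results of these data known. Named with every library's value were the member with the highest level per kilobase of each subfamily and, in each comparison, the 5 largest rises and 5 largest falls among called members with a mean of at least 1 CPM. From each list, the gene with the highest mean CPM and the 2 largest called rises and falls could be named. Protein sequences were not used here.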

Additional observations from a re-analysis of the deposited data

How the results depend on the processing

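Of 117 called pairs of member and comparison, 80 kept direction and call under every alternative and 94 under every alternative other than leaving out a library, and 24 of 123 uncalled pairs were called under some alternative. Of 250 called pairs among 64 listed genes, 201 kept theirs; alternatives for these genes and for subfamily sums without a library were chosen after seeing the data. Among pairs called in the main fit or under the alternative, 3 values changed sign with offsets for GC content and length. Cyp2d10 in Lip-1+FAC against FAC went to 0.18, and to 0.18 with a replicate block as well. Fech went to -0.015, and -0.015, in Lip-1+FAC against control. In MT+FAC against control Fech went to -0.045, and -0.045. Sign changes of uncalled pairs were not counted, and the cause was not tested. The number of members called in Lip-1+FAC against control went from 20 to 13 with these offsets and 12 with offsets and block, and in MT+FAC against control from 16 to 10 and 10. In MT+FAC against Lip-1+FAC it went from 2 to 1 with only the libraries compared and to 1 with offsets. Leaving out 1 library gave 20 to 24 members for FAC against control and 13 to 19 for Lip-1+FAC against control. It gave 9 to 15 for MT+FAC against control and 0 to 2 for MT+FAC against Lip-1+FAC. Shares of all genes called were taken only for the main fit and, against control, for the offsets without a block. Under the other settings a change in members called cannot be told from a general change in calls. Summed CPM without length scaling gave log2 ratios of -0.18 for Cyp2a in FAC against control (-0.02 per kilobase), 0.61 for Cyp3a in Lip-1+FAC against FAC (0.52), and 0.50 and 0.43 for all members in Lip-1+FAC and MT+FAC against FAC (0.44 and 0.38), since longer genes then weigh more.

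No pairing by replicate number was seen in the values. Deviations from the group means correlated at -0.25 to 0.16 between libraries of the same number and at -0.20 to 0.22 between others. With 3 libraries per group this cannot show whether same-numbered libraries share an origin. With the replicate block 25, 26 and 27 members were called in FAC against control, Lip-1+FAC against FAC and MT+FAC against FAC. In MT+FAC against Lip-1+FAC, Lip-1+FAC against control and MT+FAC against control 2, 20 and 17 were called. The last was split into 3 higher and 14 lower. The shares of all genes called with the block were not taken. Members with a mean under 1 CPM, Cyp2g1, Cyp2b23 and Cyp3a44 among them, rest on few reads, and of these 3 only Cyp2b23 was called, in MT+FAC against control.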
